A study of Mus musculus with 38 samples.

Results

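Mup13, Hsd3b5 and Car3 are 3 of the 10547 gene targets measured in 38 tissue segments of mouse liver. They are hormone-regulated hepatocyte transcripts and were chosen by their measured counts, which were known to be lower on the DDC diet than on the control diet in these same segments, so their diet contrast is given below as a description, with no test. The levels of the members relative to Alb, by segment class, genotype and location, were the measures that were tested.

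Major urinary proteins, the family of Mup13, are small lipocalins that the liver secretes and the kidney passes into urine, where they carry pheromones. Hsd3b5 is a liver enzyme of the 3beta-hydroxysteroid dehydrogenase family that reduces 3-ketosteroids. Car3 is carbonic anhydrase III, abundant in the cytosol of hepatocytes, muscle and adipocytes. In rodents the pituitary releases growth hormone in pulses in males and more steadily in females, STAT5B relays the pulses in hepatocytes, and many Mup genes, Hsd3b5 and Car3 are higher in male than in female liver. Alb, albumin, is a hepatocyte product that served as the reference for hepatocyte RNA in each segment.

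The study asked how loss of TRAIL, a death ligand, from myeloid cells alters cholestatic liver injury. WT mice, and Trail Δmye mice that lack Trail in myeloid cells, all aged 6 to 8 weeks, received either a control diet (CON) or a diet with 0.1% DDC, a porphyrin-raising agent that obstructs bile ducts. Feeding ran over 21 days as 3 rounds of 5 days on CON or DDC with 3 days of chow between them, and livers were taken on day 22. All 4 groups were C57BL/6 mice that shared this schedule, and the controls in these segments were WT rather than floxed mice without Cre. The myeloid deletion came from a Lyz2-driven Cre, so hepatocytes were not its target. The methods state that animals were matched for age and gender, but which animal or sex lay behind a segment is not in the labels.

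Fixed sections were stained for pan-cytokeratin (PanCK, cholangiocytes and ductular cells) and IBA1 (macrophages), and probe tags were released from the stained area of each region of interest (ROI) and counted. Periportal PanCK+ segments numbered 3 in WT CON, 4 in WT DDC, 4 in Trail Δmye CON and 5 in Trail Δmye DDC. Periportal IBA1+ segments numbered 2, 4, 4 and 5 in the same order, and parenchymal IBA1+ segments 1, 2, 2 and 2. Because the number of animals is not given and segments can share one, every p-value over segments below may be too small. Total counts ran from 20319 to 836971 per segment with a median of 52843. The negative probe, which has no target, lay between 1.00 and 6.08 counts except in ROI 035 of Trail Δmye DDC, where it reached 43.1 in the PanCK+ and 27.8 in the IBA1+ segment. The lowest value the files hold is 1 count, and 27.2% of all values sat there.

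Neither stain marks hepatocytes, so these transcripts were read from whatever hepatocyte RNA lay in or beside the stained area. Summed Q3-normalized counts (counts scaled so that each segment's 75th percentile is 10.5) of 10 cholangiocyte genes were 574 to 2269 in PanCK+ segments against 40.7 to 399 in periportal IBA1+ segments. Those of 10 macrophage genes were 352 to 1155 in periportal IBA1+ segments against 52.5 to 160 in PanCK+ segments. The stains therefore separated both cell types. Alb was nonetheless at least 106 times the negative probe in every one of the 38 segments. In such bulk segments, fewer hepatocytes and less RNA per hepatocyte cannot be told apart.

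Of the members, a promoter window was at hand for Hsd3b5, and that of Alb is printed beside it because Alb is the reference of every ratio. The 250 bases upstream of the RefSeq start on GRCm38.p6 are given below in the direction of transcription. Hsd3b5 lies on the minus strand at chr3:98645535-98645784 and Alb on the plus strand at chr5:90460620-90460869. Capitals mark a match to the C/EBP motif TTGCNNAA, read on either strand.
Hsd3b5: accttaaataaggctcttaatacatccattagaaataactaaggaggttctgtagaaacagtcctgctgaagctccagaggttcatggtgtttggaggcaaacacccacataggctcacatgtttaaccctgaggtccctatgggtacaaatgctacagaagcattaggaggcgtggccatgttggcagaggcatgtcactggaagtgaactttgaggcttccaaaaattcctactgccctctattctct
Alb: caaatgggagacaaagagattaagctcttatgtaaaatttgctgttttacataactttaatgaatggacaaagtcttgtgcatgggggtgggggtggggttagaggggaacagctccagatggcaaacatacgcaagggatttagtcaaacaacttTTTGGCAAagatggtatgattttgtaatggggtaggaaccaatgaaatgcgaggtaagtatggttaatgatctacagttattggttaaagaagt
The growth-hormone-responsive STAT5 motif TTCNNNGAA was in neither window, and 7.02% of 32851 mouse windows of this length hold it. The C/EBP motif, found in the Alb window, is held by 9.56% of windows. TATAAA (12.4% of windows), TGTTTAC (FOXA, 3.17%) and the HNF4-type direct repeat (0.0335%) were in neither. Mup13 (chr4:61224308-61228252), Hsd3b5 (chr3:98618636-98645534), Car3 (chr3:14863538-14872381) and Alb (chr5:90460870-90476602) are given by their RefSeq gene spans on the same build. Major urinary protein genes are near-identical in sequence and no other Mup target was on the list, so how much RNA of other Mup genes the Mup13 probe also captured is unknown.

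Mup13 relative to Alb fell into 4 bands that did not overlap across all 38 segments, in the order WT CON, Trail Δmye CON, WT DDC and Trail Δmye DDC. Per 100 Alb counts, WT CON segments held 109 to 317 Mup13 counts and Trail Δmye CON segments 12.9 to 40.6. WT DDC segments held 3.14 to 7.61 and Trail Δmye DDC segments 0.429 to 2.28. Within a band the 3 segment classes lay close together, with the single WT CON parenchymal segment as the exception at 317. The order of the bands was thus the same in PanCK+ and IBA1+ segments, and neighbouring classes within a band overlapped except in WT CON parenchyma. The gap between the CON and DDC bands belongs to the diet contrast that chose Mup13, so it is no finding. How many other genes form such bands relative to Alb was not counted.

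Mup13 in WT CON PanCK+ segments was 2321, 3986 and 2946 Q3-normalized counts. WT DDC PanCK+ segments held 109, 81.9, 94.5 and 52.5. Mean levels were 3085 ± 841 (SD, n = 3) and 84.4 ± 23.9 (SD, n = 4), a 37.3-fold fitted difference that chose this gene. Every DDC value lay below every CON value, as did those of 6.99% of all genes in this contrast, and nothing is read from that count. In Trail Δmye PanCK+ segments, CON values of 798, 643, 995 and 887 stood against DDC values of 30.7, 18.9, 11.9, 8.53 and 9.66. Those 5 DDC segments were again below all 4 CON segments, where 1.21% of all genes behaved so, and the fitted difference was 53.0-fold.

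Periportal IBA1+ segments gave Mup13 values of 7069 and 11381 in WT CON and 110, 231, 73.5 and 73.5 in WT DDC. Trail Δmye CON segments of this class held 1436, 1467, 1681 and 2789, and Trail Δmye DDC segments 31.5, 28.3, 8.53, 12.5 and 15.0. The fitted differences were 76.3-fold in WT and 97.1-fold in Trail Δmye, with no overlap in either, where 5.92% and 5.38% of all genes did not overlap in this direction. Parenchymal IBA1+ segments ran from 23020 in WT CON to 315 and 596 in WT DDC, and from 2957 and 2946 in Trail Δmye CON to 14.0 and 36.8 in Trail Δmye DDC. Those differences were 49.7-fold and 110-fold, in contrasts of so few segments that 48.2% and 25.6% of all genes lay wholly below.

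The word loss does not describe Mup13 fully, because its transcript stayed measurable on DDC. Mup13 was over 2 times the negative probe in all 16 CON segments and in 21 of 22 DDC segments. The exception was the PanCK+ segment of ROI 035, at 1.51 times. Across the DDC segments the median was 13.7 times the negative probe, against 580 times in CON.

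Car3, the carbonic anhydrase, also went down but started lower and ended nearer background. Its Q3-normalized counts were 45.5, 52.5 and 47.3 in WT CON PanCK+ segments and 2.47, 4.20, 13.1 and 6.30 in WT DDC PanCK+ segments. In Trail Δmye PanCK+ segments they were 24.5, 13.1, 10.5 and 27.3 on CON and 4.85, 4.20, 4.11, 7.48 and 5.46 on DDC. No DDC value reached a CON value of its genotype, as for 6.99% of all genes in WT and 1.21% in Trail Δmye, in the contrast that chose this gene. Periportal IBA1+ segments held 94.5 and 163 in WT CON and 5.25, 36.8, 10.5 and 3.50 in WT DDC. In Trail Δmye the same class held 50.8, 57.8, 42.7 and 63.0 on CON and 5.56, 8.08, 4.60, 6.34 and 3.75 on DDC. Here too the diets did not overlap, as for 5.92% of all genes in WT and 5.38% in Trail Δmye, and nothing is read from that. Parenchymal segments held 383 against 42.0 and 45.0 in WT, and 91.0 and 78.5 against 14.0 and 5.25 in Trail Δmye.

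The fitted Car3 differences between diets were 7.58-fold in PanCK+, 9.81-fold in periportal IBA1+ and 8.70-fold in parenchymal IBA1+ segments of WT. In Trail Δmye they were 3.25-fold, 9.07-fold and 9.21-fold. All 16 CON segments were over 2 times the negative probe for Car3. In 9 of the 22 DDC segments Car3 was not, and 3 of those were at 1 count, so the DDC level and each fold are bounded by background there.

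Hsd3b5, the steroid-reducing enzyme, was too low for its loss to be measured in most segments. The single WT CON parenchymal segment held 9 counts, which was 47.3 Q3-normalized counts and 8.04 times the negative probe. The 2 WT DDC parenchymal segments held 1 and 2 counts. Both Trail Δmye CON parenchymal segments held 11 counts, which was 6.42 and 6.08 Q3-normalized counts. The 2 Trail Δmye DDC ones held 1 count each, with a mean of 3.06 Q3-normalized counts. Their total counts were 33832 to 48357, against 252265 to 265759 on CON, so these raw counts differ in depth. By Q3-normalized counts parenchyma was where Hsd3b5 was highest on CON, and on DDC it was at or next to the lowest count. Per Alb, Trail Δmye CON parenchyma held 0.73 times as much as DDC parenchyma. Its 0.0715 and 0.0728 per 100 Alb counts lay below the 0.239 reached elsewhere in Trail Δmye CON.

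Around portal tracts the Hsd3b5 counts were 1, 3 and 1 in WT CON PanCK+ and 2 and 3 in WT CON IBA1+ segments. On DDC, WT PanCK+ segments held 1, 1, 1 and 2 counts and WT IBA1+ segments 1 count each. These values sit at the bottom of the scale on both diets. In Trail Δmye, CON PanCK+ segments held 1, 2, 2 and 1 counts and CON IBA1+ segments 2, 2, 8 and 3. DDC PanCK+ segments held 6, 4, 5, 39 and 3 counts, and the 39 came from ROI 035 with its high negative probe. Hsd3b5 was not over 2 times the negative probe in 12 of 16 CON and in 22 of 22 DDC segments, so no fold is given for the portal segments.

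**Figure D1:**
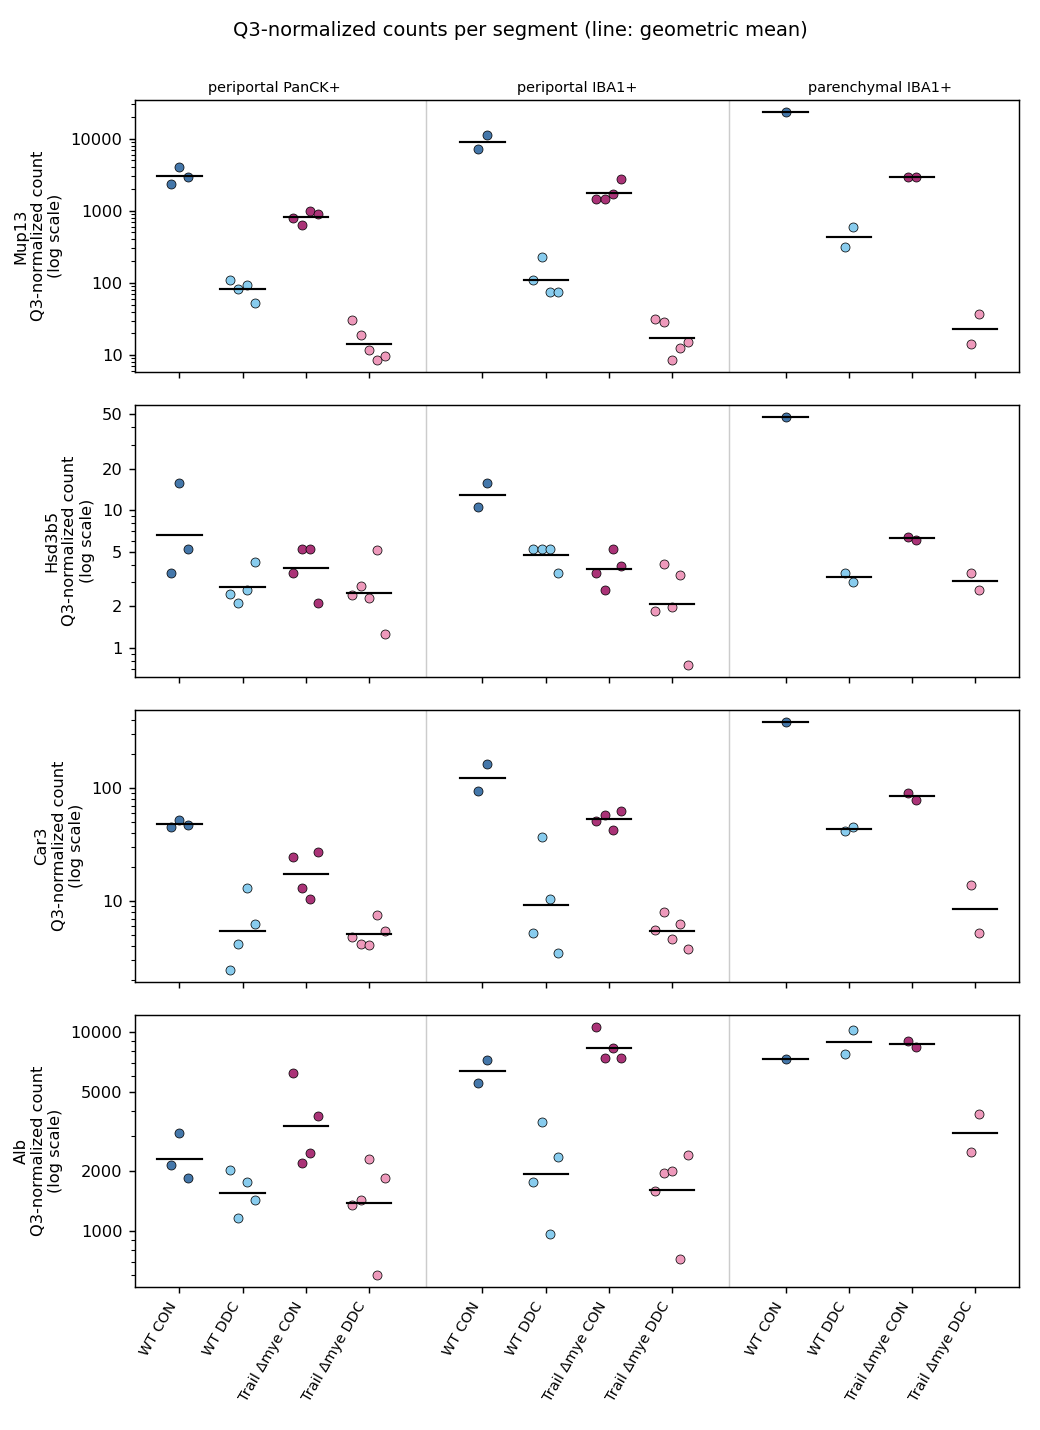
Q3-normalized counts (log scale) of Mup13, Hsd3b5, Car3 and Alb in each of the 38 segments, by genotype and diet within periportal PanCK+, periportal IBA1+ and parenchymal IBA1+ segments; the line is the geometric mean. Mup13 and Car3 in DDC segments lie below every CON segment of the same genotype and class, the contrast that chose them. Alb overlaps between diets in WT PanCK+ segments.

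**Figure D2:**
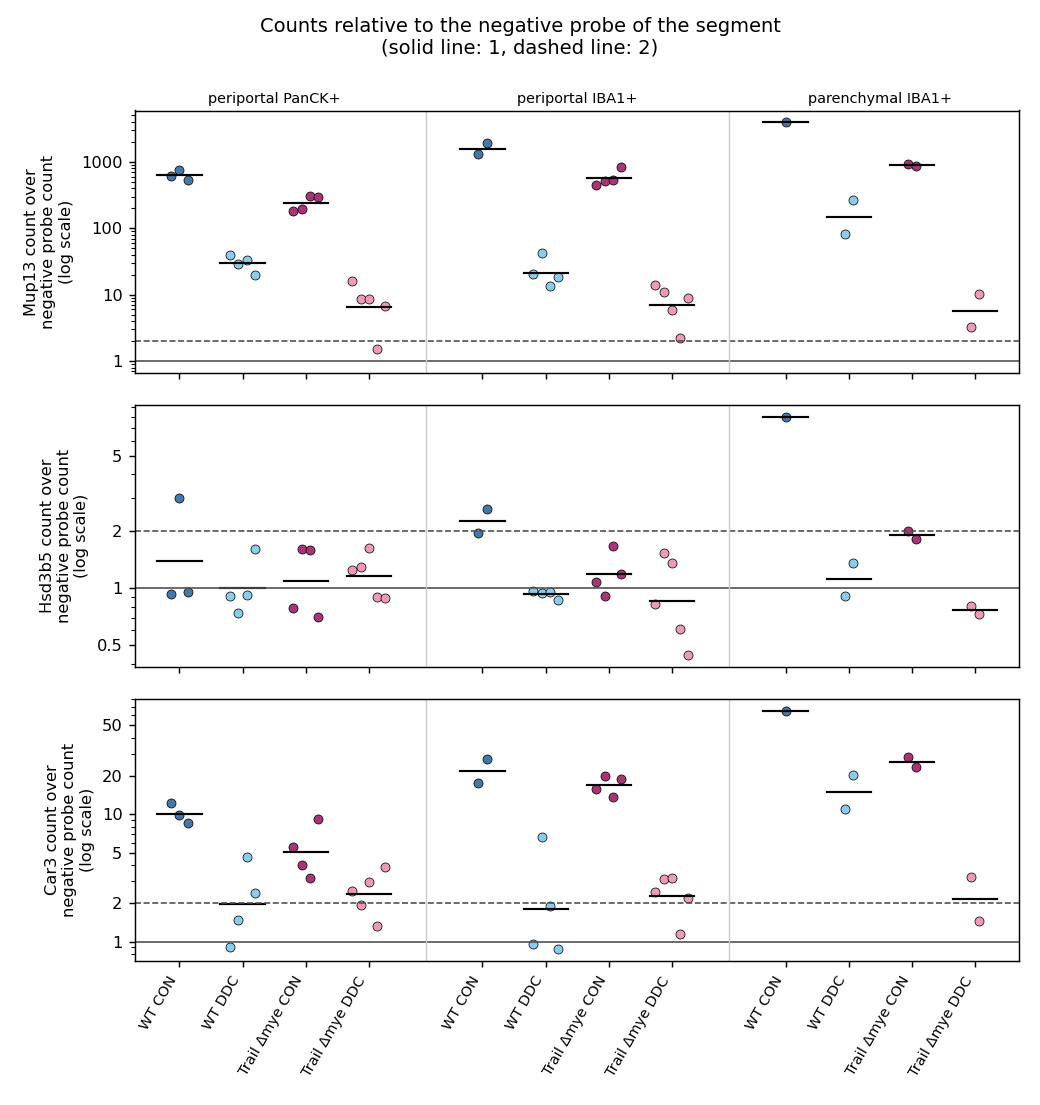
Counts of each member divided by the segment's negative probe count (log scale), in the same groups, with a solid line at 1, a dashed line at 2 and the geometric mean of each group. Mup13 stays above 2 in 21 of 22 DDC segments, Hsd3b5 in none of them.

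Alb itself was lower on DDC in 4 of the 6 diet contrasts, by less than Mup13. The log2 change in Alb was -1.28 in Trail Δmye PanCK+ segments (adjusted p = 0.00225, edgeR's quasi-likelihood test with Benjamini-Hochberg adjustment over 10547 genes). It was -1.57 in WT (adjusted p = 0.0235) and -2.28 in Trail Δmye (adjusted p = 4.58e-07) periportal IBA1+ segments by the same edgeR test. Alb fell by 1.45 in Trail Δmye parenchymal segments (adjusted p = 6.23e-06, edgeR) and did not pass in WT PanCK+ (-0.59, adjusted p = 0.83) or WT parenchymal segments (0.30, adjusted p = 0.98). Of the 10 hepatocyte genes that include Alb, 8 were lower on DDC in periportal IBA1+ segments of each genotype, where 1.04% (WT) and 5.18% (Trail Δmye) of all genes were. In PanCK+ segments 1 of the 10 in WT and 2 in Trail Δmye were lower (0.417% and 0.664% of all genes), and in parenchyma 0 and 3 (0.218% and 0.588%). The WT periportal IBA1+ count rested on few segments, since DESeq2 called 5 of the 10 and the count was 0 without WT CON ROI 005 and 5 without WT DDC ROI 007 or 011, while in Trail Δmye it stayed at 7 to 8 on leaving out any segment. In PanCK+ segments the WT count was 0 without WT CON ROI 003 and 3 without Trail Δmye DDC ROI 035, and the Trail Δmye count 1 without Trail Δmye CON ROI 026. In parenchyma the WT count was 2 without Trail Δmye DDC ROI 037 or 038, and the Trail Δmye count 5 without ROI 038. Their median log2 change ran from -1.86 in WT periportal IBA1+ to -0.20 in WT parenchymal segments, beside -0.16 and -0.31 over all genes.

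Set against Alb, the Mup13 difference between diets shrank in 5 of the 6 contrasts but kept its order. CON segments held 25.0 times (WT) and 23.8 times (Trail Δmye) as much Mup13 per Alb as DDC segments in the PanCK+ class. In periportal IBA1+ segments the ratios were 25.3 and 20.2, and in parenchymal segments 64.9 and 46.4. None of these 6 contrasts overlapped, which describes the contrast that chose Mup13, and the share of all genes was not counted for ratios to Alb.

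Car3 per Alb differed between diets by more in WT than in Trail Δmye segments, as a description. In both IBA1+ classes this lay mostly in Alb rather than in Car3. The difference between genotypes in the diet effect was 0.11 for Car3 and -0.70 for Alb in periportal IBA1+ segments (log2, edgeR fit). In parenchymal segments it was -0.08 for Car3 and -1.76 for Alb, with 1 WT CON segment. In WT, CON segments held 6.04 times as much per Alb as DDC segments in the PanCK+ class, 4.14 times in the periportal IBA1+ class and 10.8 times in parenchyma. All 3 were without overlap, from which nothing is read, since diet chose Car3 and the share of all genes was not counted. In Trail Δmye the same ratios were 1.40, 1.88 and 3.51, and the diets overlapped in the PanCK+ and periportal IBA1+ classes. The PanCK+ overlap came from ROI 035, with its high negative probe, since the other 4 DDC values reached 0.359 at most against 0.398 or more on CON. Per 100 Alb counts, WT CON PanCK+ segments held 2.13, 1.70 and 2.58 Car3 counts, against 0.398, 0.598, 0.429 and 0.721 in Trail Δmye CON. The DDC values were 0.122, 0.364, 0.751 and 0.442 in WT and 0.359, 0.295, 0.179, 1.24 and 0.297 in Trail Δmye. The difference between genotypes in the diet effect on Car3 counts was 1.22 on the log2 scale in PanCK+ segments and did not pass as an interaction (adjusted p over 0.05 by edgeR, as for all 3 members in all 3 classes). Genes called in these interactions made up 0.114%, 0.0569% and 0.0948% of all genes in PanCK+, periportal IBA1+ and parenchymal IBA1+ segments.

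**Figure D3:**
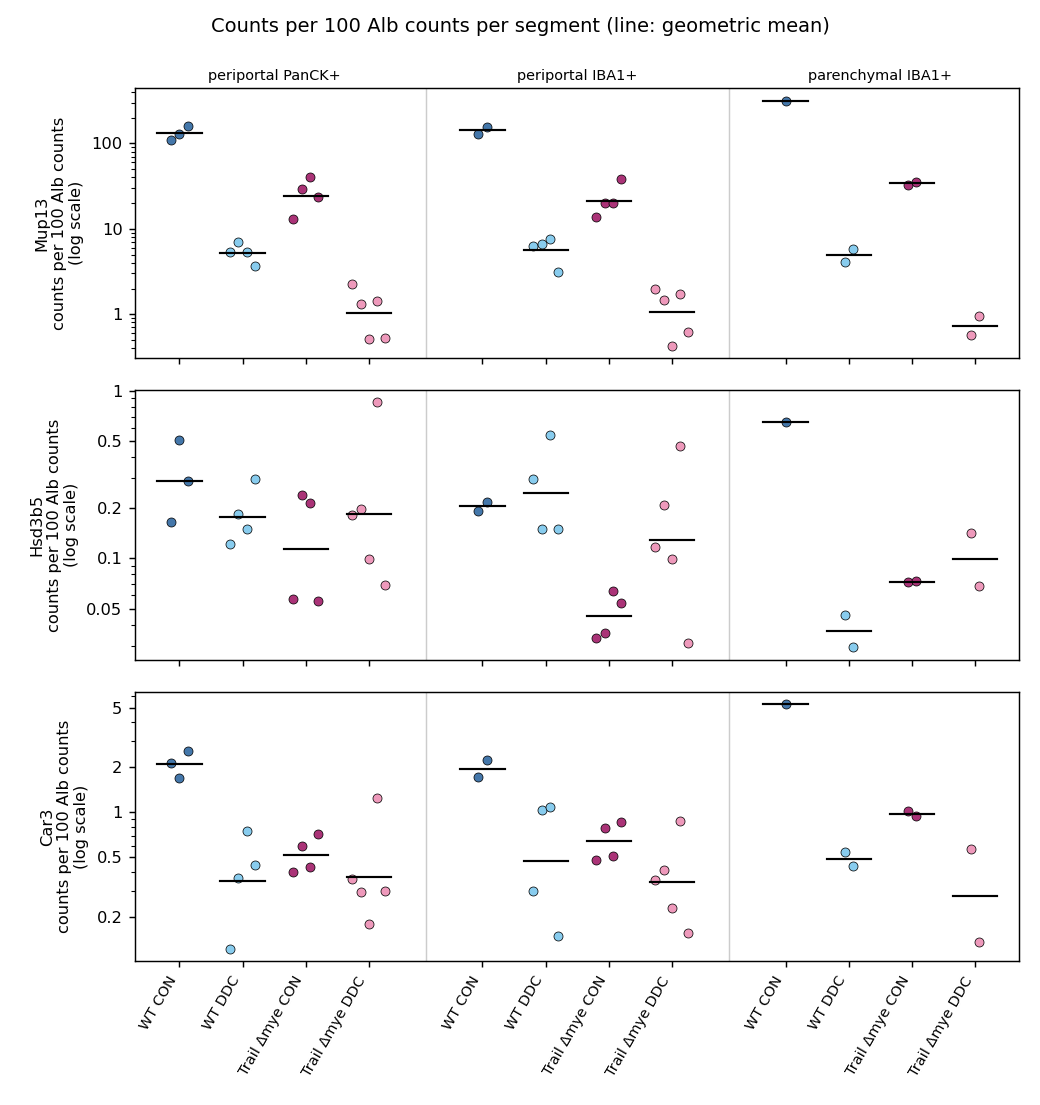
Counts of Mup13, Hsd3b5 and Car3 per 100 Alb counts (log scale) in each segment, by genotype and diet within the 3 segment classes; the line is the geometric mean. Mup13 forms 4 separate bands, WT CON at 109 to 317, Trail Δmye CON at 12.9 to 40.6, WT DDC at 3.14 to 7.61 and Trail Δmye DDC at 0.429 to 2.28. The gap between CON and DDC belongs to the contrast that chose Mup13.

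The genotype contrast was not used to choose the members. Mup13 was lower in Trail Δmye than in WT segments on both diets and in all 3 classes, and no Trail Δmye value reached a WT value of the same class and diet. On CON, PanCK+ segments of Trail Δmye averaged 831 ± 149 (SD, n = 4) Q3-normalized counts against 3085 ± 841 (SD, n = 3) in WT, 3.71-fold lower (log2 -1.89 ± 0.33 SE, adjusted p = 0.000177, edgeR). Mup13 was the 1 member of 3 called, where 0.152% of all genes were called lower and 2.79% did not overlap in this direction. On DDC, the 5 PanCK+ segments averaged 15.9 ± 9.19 against 84.4 ± 23.9 in WT, 5.28-fold lower (log2 -2.40 ± 0.34 SE, adjusted p = 1.23e-06, edgeR), again 1 of 3 members, with 0.0569% of all genes called lower and 0.777% not overlapping. Without ROI 035, whose negative probe was high, this was -2.20 and still called.

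Periportal IBA1+ segments showed the same difference. On CON they held 1843 ± 640 (SD, n = 4) Mup13 counts in Trail Δmye against 9225 ± 3049 (SD, n = 2) in WT, 5.01-fold lower (log2 -2.32 ± 0.42 SE, adjusted p = 0.000792, edgeR), with 0.161% of all genes called lower and 7.93% not overlapping. Without WT CON ROI 005, which leaves 1 WT CON segment that is assumed to vary like the others, that call was lost (log2 -1.94, adjusted p = 0.409, edgeR). On DDC they held 19.2 ± 10.1 against 122 ± 74.7, 6.37-fold lower (log2 -2.67 ± 0.39 SE, adjusted p = 1.00e-04, edgeR), and 0.019% of all genes were called lower, with 0.569% not overlapping. Without ROI 035 this was -2.52 and still called. Mup13 was the 1 member of 3 called in each.

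In parenchymal IBA1+ segments WT CON is 1 segment with no spread of its own, which the fit assumes to vary like the other groups, so the CON comparison sets 2 segments against that one. Mup13 was 7.80-fold lower in Trail Δmye there (log2 -2.96 ± 0.28 SE, adjusted p = 2.88e-12, edgeR) and Car3 4.52-fold lower (log2 -2.18 ± 0.37 SE, adjusted p = 0.000132, edgeR). Hsd3b5 also passed (log2 -2.89 ± 0.59 SE, adjusted p = 0.00977, edgeR), but the Trail Δmye segments lay at 1.81 and 2.01 times the negative probe, so background bounds the size of that difference. The share of all genes called lower was 0.171%, and 40.6% of all genes lay wholly below the 1 WT segment. The Car3 call was lost without Trail Δmye ROI 031 (log2 -2.07) and held in 4 of the 7 other fits, and the Hsd3b5 call held in 1 of the 7. On DDC, Mup13 was 17.3-fold lower (log2 -4.11 ± 0.35 SE, adjusted p = 3.26e-14, edgeR) and the other members were not called, with 0.228% of all genes called lower and 13.4% not overlapping. Alb was itself 2.83-fold lower in that contrast (log2 -1.50 ± 0.22 SE, adjusted p = 1.54e-05, edgeR). That Alb call held in 3 of the 7 other fits and was lost without WT DDC ROI 012 (log2 -1.28).

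Car3 in the portal segments did not pass by genotype. Its log2 change was -1.34 ± 0.37 (SE, adjusted p = 0.190, edgeR) in CON PanCK+ and -1.27 ± 0.37 (SE, adjusted p = 0.343, edgeR) in CON periportal IBA1+ segments. No Trail Δmye CON value reached a WT CON value in either, as for 2.79% and 7.93% of all genes, and nothing is read from that. On DDC the log2 change of Car3 was -0.11 and -1.16, with overlap in both. Alb did not pass between genotypes in any portal contrast, with log2 changes of 0.63 and -0.05 in PanCK+ and 0.39 and -0.31 in periportal IBA1+ segments on CON and DDC.

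**Figure D4:**
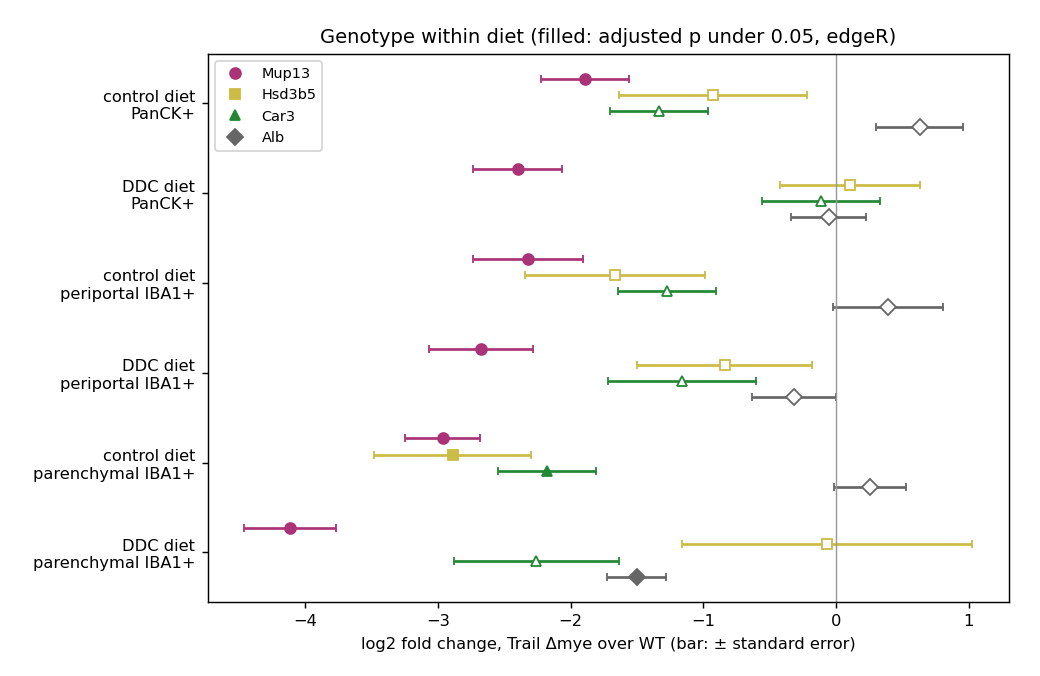
Log2 fold change of Trail Δmye over WT for the members and Alb, by diet and segment class; bars are ± 1 standard error and filled symbols passed an adjusted p of 0.05 in edgeR. Mup13 is filled in all 6 contrasts, from -1.89 to -4.11, although WT CON parenchyma is 1 segment without a spread of its own, while Alb is filled only in DDC parenchymal segments at -1.50.

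Relative to Alb, Mup13 in CON PanCK+ segments was 5.35-fold lower in Trail Δmye (exact permutation p = 0.0286, two-sided, the smallest that 3 against 4 segments allow; 0.0762 after Benjamini-Hochberg adjustment over the 8 comparisons of a gene). In DDC PanCK+ segments it was 5.09-fold lower (exact permutation p = 0.0159, adjusted 0.0635). In periportal IBA1+ segments it was 6.62-fold lower on CON (exact permutation p = 0.0667, the smallest possible for 2 against 4, adjusted 0.133) and 5.28-fold lower on DDC (exact permutation p = 0.00794, the smallest possible, adjusted 0.0635). Every segment of each contrast followed this direction, and none of the 24 such tests over the 3 members passed the adjustment. Car3 per Alb was 4.04-fold lower in CON PanCK+ (exact permutation p = 0.0286, adjusted 0.178) and 3.06-fold lower in CON periportal IBA1+ segments (exact permutation p = 0.0667, adjusted 0.178) of Trail Δmye. On DDC its log2 difference was 0.09 in PanCK+ and -0.48 in periportal IBA1+ segments (exact permutation p = 0.929 and 0.556).

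Some other sex-biased liver genes, a minority of each list after adjustment, were called by genotype on the control diet, and these values belong beside the difference in Mup13. Of 10 measured genes known to be higher in male mouse liver, a list that does not hold the members, 2 were lower in Trail Δmye CON PanCK+ segments, 4 in CON periportal IBA1+ and 3 in CON parenchymal IBA1+ segments, and 0 were higher. The shares of all genes called lower were 0.152%, 0.161% and 0.171%. Their median log2 changes were -0.64, -1.46 and -2.02, beside -0.06, -0.08 and -0.08 over all genes. Gstp1, a glutathione transferase, changed by -2.44 (adjusted p = 3.13e-05), -3.52 (adjusted p = 7.78e-08) and -3.57 (adjusted p = 1.90e-11) in edgeR. Nudt7, a peroxisomal coenzyme A hydrolase, changed by -2.27 (adjusted p = 0.00021), -2.58 (adjusted p = 1.92e-06) and -2.13 (adjusted p = 0.00667) in edgeR. Cyp4a12a, a fatty acid hydroxylase, changed by -4.51 (adjusted p = 7.80e-08) in periportal and -4.51 (adjusted p = 1.28e-07) in parenchymal IBA1+ segments by edgeR.

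Of 13 measured genes known to be higher in female mouse liver, 2 were higher in Trail Δmye CON PanCK+, 1 in CON periportal IBA1+ and 1 in CON parenchymal IBA1+ segments, and 0 were lower. The shares of all genes called higher were 0.0664%, 0.0379% and 0.0284%, and the list medians were 0.60, 1.47 and 1.02. Cyp2a4, a steroid hydroxylase, rose by 3.70 (adjusted p = 0.000183), 4.55 (adjusted p = 0.000407) and 5.02 (adjusted p = 0.000716) on the log2 scale in edgeR, but it was at 1 count in every WT CON segment, so these sizes depend on the fit and are no bounds. Cyp3a41a rose by 2.47 in PanCK+ segments (adjusted p = 0.0457, edgeR). At an unadjusted p under 0.05 in edgeR, 4 and 7 of the 10 male-biased genes were lower in CON PanCK+ and periportal IBA1+ segments. Of the 13 female-biased genes, 3 and 6 were higher at that threshold. In either direction, 273 and 279 of all 10547 genes passed it. In CON periportal IBA1+ segments, leaving out WT CON ROI 005 took the male-biased count from 4 to 2 and the female-biased count from 1 to 0, and the female-biased count was 2 without Trail Δmye CON ROI 028 or DDC ROI 035. In CON PanCK+ segments the female-biased count was 1 without any of 10 single segments. Summed over each list, the male-biased genes gave 298 to 399 Q3-normalized counts in WT CON PanCK+ segments and 65.7 to 154 in Trail Δmye CON. The female-biased sums were 70.0 to 89.3 and 171 to 235 in the same segments. In periportal IBA1+ segments the male-biased sums were 720 to 1203 against 134 to 172, and the female-biased sums 89.3 in both WT segments against 311 to 466.1. Neither sum overlapped between genotypes on CON. In WT CON, 7 (PanCK+) and 10 (periportal IBA1+) of the 13 female-biased genes were at 1 count in every segment. The lowest count and the scaling factor thus set much of the WT CON female-biased sums.

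On DDC few genes of either list were called by genotype. The male-biased list had 0 genes called in any class, by edgeR or DESeq2, with 0, 0 and 1 lower at an unadjusted p under 0.05 in PanCK+, periportal IBA1+ and parenchymal IBA1+ segments. The female-biased list had 0 higher, with 1, 1 and 0 at an unadjusted p under 0.05, and 1 lower in edgeR, Abcd2, a peroxisomal fatty acid transporter, in periportal IBA1+ segments (log2 -2.59, adjusted p = 0.021), which DESeq2 did not call and which was lost without any of 8 single segments. The male-biased sums on DDC were 130 to 198 in WT and 108 to 184 in Trail Δmye PanCK+ segments, which overlap. In parenchyma they were 483 and 490 in WT and 287 and 362 in Trail Δmye, without overlap. The difference between the diets in the genotype effect passed as an interaction for Gstp1 in all 3 classes (log2 2.23, 3.10 and 2.79, adjusted p = 0.0196, 0.00399 and 0.000508, edgeR), for Nudt7 in PanCK+ segments (2.55, adjusted p = 0.0441, edgeR), for Cyp4a12a in periportal IBA1+ segments (3.65, adjusted p = 0.0128, edgeR) and for Cyp2a4 in parenchymal IBA1+ segments (-4.86, adjusted p = 0.0246, edgeR). Both parenchymal values rest on the 1 WT CON segment, where Cyp2a4 was at 1 count. For Mup13 the same interaction was -0.51, -0.35 and -1.15 and did not pass, and it was called by genotype on both diets.

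Between diets, the male-biased list was lower on DDC in 1, 4 and 3 of 10 genes in PanCK+, periportal IBA1+ and parenchymal IBA1+ segments of WT and in 0, 5 and 0 in Trail Δmye, and by DESeq2 in 1, 3, 0, 1, 3 and 0. The female-biased list was lower in 0, 0 and 0 of 13 genes in WT and in 4, 8 and 3 in Trail Δmye, and by DESeq2 in 0, 0, 0, 5, 7 and 1. In WT CON, 7, 10 and 11 of the 13 genes were at 1 count in every segment of these classes, against 0 in Trail Δmye CON. Genes at the lowest value on CON cannot be called lower on DDC, so the WT counts do not show that these genes were unchanged. Some genes were higher on DDC. Gstp1 of the male-biased list was called higher in Trail Δmye PanCK+ (log2 1.44, adjusted p = 0.00657, edgeR) and parenchymal segments (2.06, adjusted p = 5.30e-06, edgeR), the latter also by DESeq2 and the former lost without Trail Δmye CON ROI 027 or 028. Of the female-biased list, Cyp2a4 was called higher in WT parenchyma (4.51, adjusted p = 0.011, edgeR), from 1 count in the single CON segment, and Atp6v0d2, a proton pump subunit, in Trail Δmye periportal IBA1+ segments (0.94, adjusted p = 0.0433, edgeR), which was lost without any of 6 single segments. DESeq2 called neither. The shares of all genes called higher were 0.493%, 0.142% and 0.0664% in WT and 1.43%, 4.2% and 0.322% in Trail Δmye. Leaving out 1 segment moved the lower counts of the male-biased list to 1 in WT (without WT CON ROI 005) and 3 in Trail Δmye (without ROI 028 or 034) in periportal IBA1+ segments, and those of the female-biased list to 2 in Trail Δmye PanCK+ (without ROI 029) and 5 in Trail Δmye parenchymal segments (without WT DDC ROI 010 or 012). At an unadjusted p under 0.05 no female-biased gene was lower in WT. The shares of all genes called lower were 0.417%, 1.04% and 0.218% in WT and 0.664%, 5.18% and 0.588% in Trail Δmye. The sums of both lists lay closer together between genotypes on DDC than on CON.

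Gm21783, annotated to the Y chromosome by RefSeq, was 20 to 28 counts in WT CON PanCK+ segments and 1 to 3 in Trail Δmye CON PanCK+ segments (log2 -4.76, adjusted p = 7.09e-10, edgeR), and it was also lower in CON periportal IBA1+ segments (log2 -3.72, adjusted p = 0.00147, edgeR). On DDC it was 15 to 35 counts in WT and 85 to 168 in Trail Δmye PanCK+ segments, whose total counts were larger. In Q3-normalized counts Gm21783 was 39.4 to 86.5 in WT DDC and 22.1 to 61.0 in Trail Δmye DDC PanCK+ segments (log2 -0.30, adjusted p = 0.81, edgeR). Ddx3y and Uty, both on the Y chromosome, were at most 3 counts in WT CON segments, near the negative probe, so no pattern is read from them. In Trail Δmye CON periportal IBA1+ segments they reached 7 and 9 counts, or 3.18 and 4.08 times the negative probe. Total counts there were 80722 to 220382, against 26380 to 35208 in WT CON. In Q3-normalized counts, Ddx3y in this class was 5.25 to 15.8 in WT CON and 1.31 to 9.19 in Trail Δmye CON. Uty was 5.25 in WT CON and 2.63 to 11.8 in Trail Δmye CON. The sex of the animals behind the segments is not given, and the part of sex in the Mup13 difference was not tested. On CON a difference in the sex of the animals and the genotype cannot be told apart. Within Trail Δmye PanCK+ segments, Gm21783 was 2.63 to 6.30 Q3-normalized counts on CON and 22.1 to 61.0 on DDC. The highest multiples of the negative probe there on CON and DDC were 1.60 and 5.92 for Ddx3y and 2.12 and 2.94 for Uty. For Eif2s3y and Sry, also on the Y chromosome, they were 1.60 and 7.52, and 2.40 and 2.91. In Trail Δmye periportal IBA1+ segments they were 3.18 and 7.71 (Ddx3y), 4.08 and 3.18 (Uty), 2.17 and 4.08 (Eif2s3y) and 2.27 and 3.01 (Sry). Total counts were mostly larger on DDC. A difference in sex and the diet thus cannot be told apart in Trail Δmye either. The same limit holds for every Trail Δmye diet difference given above and below, of the members, Alb and all gene lists, and for the interactions.

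**Figure D5:**
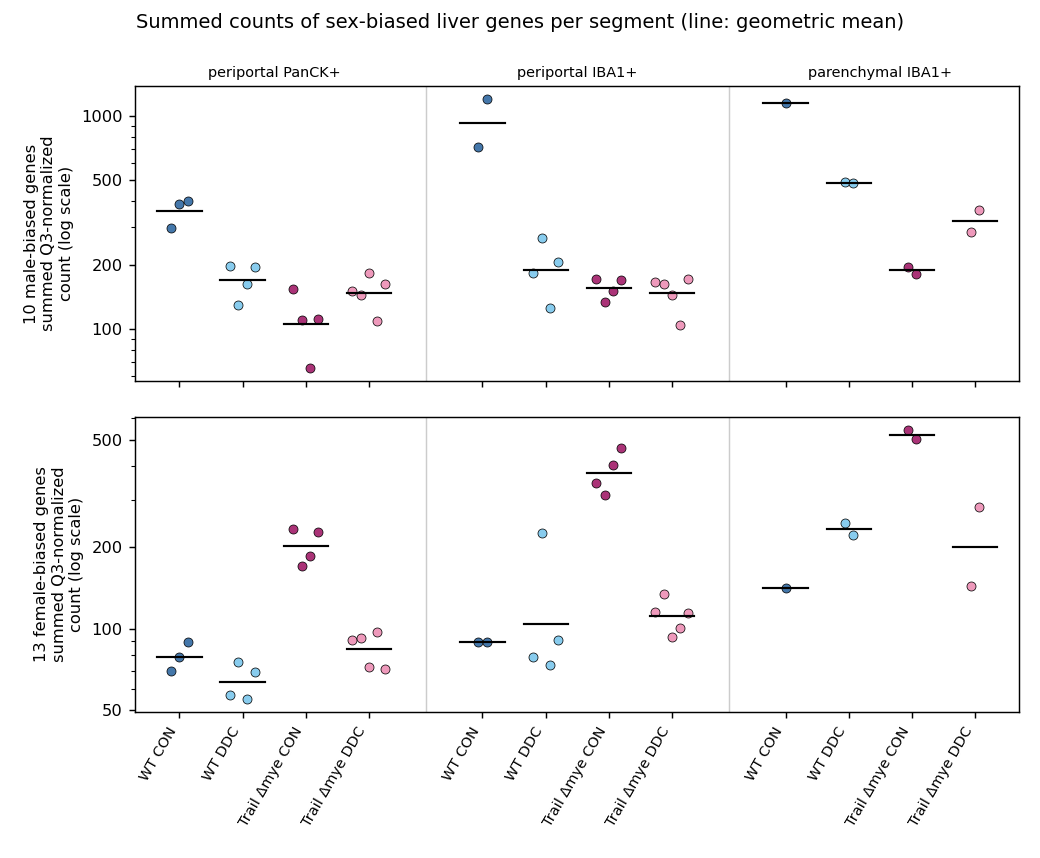
Summed Q3-normalized counts (log scale) per segment of 10 genes higher in male liver and 13 genes higher in female liver, by genotype and diet within the 3 segment classes; the line is the geometric mean. On CON the male-biased sums of PanCK+ segments are 298 to 399 in WT and 65.7 to 154 in Trail Δmye, and the female-biased sums 70.0 to 89.3 and 171 to 235, while on DDC the male-biased sums overlap in both periportal classes but not in parenchyma (483 and 490 in WT, 287 and 362 in Trail Δmye). In WT CON PanCK+ segments 7 of the 13 female-biased genes are at 1 count in every segment.

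Genes of the growth hormone pathway, of which 16 of 18 were measured, were lower on DDC in up to 5 genes per contrast. In PanCK+ segments 0 were lower in WT and 3 in Trail Δmye, namely Ghr, the growth hormone receptor (log2 -1.18), Prlr, the prolactin receptor (-1.58), and Igfbp3, an IGF carrier (-1.42), where 0.417% and 0.664% of all genes were called lower. The 3 fell to 0 without Trail Δmye CON ROI 029 and to 1 without ROI 026, and the 0 in WT became 1 without any of 6 single segments. In periportal IBA1+ segments 1 was lower in WT, Igf1, the secreted growth factor that growth hormone induces (-2.15), and 5 in Trail Δmye, with Ghr at -1.47, Prlr at -1.86, Igf1 at -0.98, Igfals at -1.10 and Igfbp2 at -2.35, against 1.04% and 5.18% of all genes. The WT call was lost without WT CON ROI 005 or WT DDC ROI 007, 011 or 013, the WT count was 2 without Trail Δmye DDC ROI 035, and the Trail Δmye count 3 without Trail Δmye CON ROI 027. Parenchymal segments had 0 in WT and 1 in Trail Δmye, Igfbp2 (-2.94), against 0.218% and 0.588%. By edgeR and DESeq2 0 were called higher in these contrasts, with 3 higher at an unadjusted p under 0.05 in Trail Δmye PanCK+ segments (Stat5a at 1.18, Stat3 at 1.22 and Socs2 at 1.30), of which Stat3 and Socs2 were called without ROI 035. DESeq2 called the same numbers except 0 in WT periportal IBA1+ and 0 in Trail Δmye parenchymal segments, and at an unadjusted p under 0.05 edgeR had 2 and 5 genes lower in PanCK+, 4 and 7 in periportal IBA1+ and 3 and 5 in parenchymal segments of WT and Trail Δmye. The number of segments differed between genotypes, and whether the counts differ between them was not tested. In Trail Δmye the diet and a difference in the sex of the animals cannot be told apart for these genes either. By genotype, 1 gene of this list was called, Igfbp2 in DDC parenchymal segments (log2 -2.84), which DESeq2 did not call and which was lost without any of 5 single segments.

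Of nuclear hormone receptors and their partners, 11 of 12 measured, edgeR called 4 lower on DDC in Trail Δmye periportal IBA1+ and 1 in Trail Δmye parenchymal segments, where 5.18% and 0.588% of all genes were, and 0 in the other diet contrasts (1, 0 and 0 lower at an unadjusted p under 0.05 in WT PanCK+, periportal and parenchymal IBA1+ segments, and 3 in Trail Δmye PanCK+). DESeq2 called 4 and 0, and 1 in Trail Δmye PanCK+ segments. The 4 became 1 to 5 under other fits and 2 without Trail Δmye CON ROI 029. Those of periportal IBA1+ segments included Hnf4a, a master regulator of hepatocyte genes (log2 -0.98), Nr1i3, the xenobiotic receptor CAR (-1.31), and Hsd11b1, which regenerates active glucocorticoid (-1.33). In parenchyma Hsd11b1 was the 1 gene that edgeR called (-3.31). Of 9 measured steroid-metabolizing enzymes, 5 were lower in Trail Δmye periportal IBA1+ segments against the same 5.18% of all genes, among them Akr1c6 (-2.16) and Hsd17b6 (-1.78), both hydroxysteroid dehydrogenases, and 1 in Trail Δmye parenchyma, Akr1c6 (-1.78). The 5 were 4 by DESeq2 and 0 to 5 under other fits, and the parenchymal call was lost by DESeq2 and without any 1 of the 4 Trail Δmye segments. The relatives Hsd3b1, Hsd3b2 and Hsd3b7 and the carbonic anhydrases Car2, Car5a, Car5b, Car8, Car13 and Car14 were called in no diet or genotype contrast, and their medians lay between 0.92 and 2.72 times the negative probe.

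Relative to Alb, none of the 3 members passed between segment classes after adjustment. On CON, Mup13, Car3 and Alb were each lower in the PanCK+ than in the IBA1+ segment of the same ROI in 6 of 6 ROIs. Their log2 changes were -1.31 ± 0.16 (SE, adjusted p = 9.46e-10), -1.45 ± 0.27 (SE, adjusted p = 7.14e-05) and -1.29 ± 0.15 (SE, adjusted p = 6.97e-10) in edgeR, so 2 of the 3 members were called where 4.31% of all genes were called lower. Relative to Alb, Mup13 differed by 0.14 on the log2 scale between the classes on CON and by -0.06 on DDC (exact sign-flip permutation p = 0.656 and 0.5 over 6 and 9 ROIs), and Car3 by -0.17 and -0.13 (exact sign-flip permutation p = 0.0938 and 0.715). Hsd3b5 per Alb was higher in PanCK+ in 6 of 6 CON ROIs, by 1.19 on the log2 scale or 2.28-fold (exact sign-flip permutation p = 0.03125, the smallest that 6 ROIs allow, 0.125 after adjustment over the 8 comparisons). Its counts there were 1 to 3 in PanCK+ and 2 to 8 in IBA1+ segments, and without a reference gene the difference was -0.15. On DDC it was 0.08 (exact sign-flip permutation p = 0.848). On DDC, no member was called between the classes (unadjusted p of 0.123, 0.777 and 0.684 for Mup13, Hsd3b5 and Car3 in edgeR, where 6.61% of all genes were called lower), and Mup13 was lower in PanCK+ in 7 of 9 ROIs. In edgeR, Hsd3b5 was called on neither diet.

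By location, Mup13 was lower in periportal than in parenchymal IBA1+ segments on CON (log2 -0.90 ± 0.18 SE, adjusted p = 0.0122, edgeR), the 1 member called where 0.0569% of all genes were. Relative to Alb this was -0.83 (exact permutation p = 0.111, adjusted 0.178), while Alb itself changed by -0.09. On DDC, Mup13 (log2 -1.37 ± 0.38 SE, adjusted p = 0.0295, edgeR), Car3 (log2 -1.29 ± 0.35 SE, adjusted p = 0.0289, edgeR) and Alb (log2 -1.49 ± 0.27 SE, adjusted p = 0.000379, edgeR) were lower near portal tracts, 2 of 3 members where 1.85% of all genes were called lower. Relative to Alb the DDC differences were 0.37 for Mup13 and 0.13 for Car3 (exact permutation p = 0.41 and 0.851). The location calls of the members were the least stable, since each was lost on leaving out single segments of either genotype, with the ranges given at the end.

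The transcripts whose log2 Q3-normalized counts tracked Mup13 most closely over the 38 segments, among 3088 genes with a mean of 10 or more counts, were Fabp1 (Pearson's r = 0.945), Serpina3k (0.929), Ces3b (0.926), Sult2a8 (0.919) and Car3 (0.894). Alb ranked 53rd, at 0.712. For Car3 they were Sult2a8 (0.899), Mup13 (0.894), Serpina3k (0.891), Scd1 (0.889) and Fabp1 (0.883). For Hsd3b5 they were Sult2a8 (0.711), Car3 (0.707), Nudt7 (0.706), Mup13 (0.685) and Aox3 (0.675). These correlations are a description over segments that share diet, genotype, ROI and possibly animals, and Mup13 itself correlated with the total count of a segment at -0.447.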

How the data were processed

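RNA was measured with the GeoMx mouse whole transcriptome atlas on fixed liver sections, after 18 PCR cycles; bcl2fastq and mm10 are named in the submitters' processing notes. The authors deposited estimated counts per target and segment, already filtered against the limit of quantitation, with 1 as the lowest value, and the same values as a normalized signal, each segment's counts times 1 factor that sets the 75th percentile to 10.5. Counts are whole for all but 3 of 10547 genes and were rounded for count models. Segments were grouped by the labels. Genotype, diet, class and location were fitted with edgeR 4.0.16 (quasi-likelihood, upper-quartile factors, no filter, R 4.3.3), with Benjamini-Hochberg adjustment over 10547 genes and a threshold of 0.05. The groups of a segment class shared a fit. Ratios to Alb were compared on the log2 scale with exact permutation tests over segments, or exact sign-flip tests over ROIs (Python 3.11.15, scipy 1.17.1), adjusted over 8 comparisons per gene. Alternatives were TMM, DESeq2 1.42.0 and limma 3.58.1 (log2 of count + 1 or + 0.5), a low-count filter, counts of 1 set to 0, thinning to 20319 counts, other samples in the fit, the ROI as a block, other reference genes, and leaving out each segment. Subtracting the negative probe was added after seeing the data. The fits and exact tests were tested on simulated data.

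The members and gene lists were chosen with earlier results of these data known. Named genes were the members, Alb, other targets of the same families, up to 4 genes per list and the 5 closest correlates of each member. Of 10547 symbols, 10512 matched RefSeq (GRCm38.p6). All replicate pairs differed beyond counting noise (smallest chi-square per degree of freedom 1.10). PanCK+ and IBA1+ segments of a ROI come from 1 region per the labels; their deviations from group means correlated at -0.019 to 0.550 (median 0.038) over 15 ROIs. Counts rest on reads collapsed per target, and the number of segments limits the precision.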

Additional observations from a re-analysis of the deposited data

Results flagged for a closer look

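In groups of 4 to 10 segments, a value was singled out when its gap to the nearest segment exceeded Dixon's limit; 36 groups were looked at, and chance alone marks about 1 in 20. In the PanCK+ segment of ROI 035 (Trail Δmye DDC), Hsd3b5 stood at 0.850 per 100 Alb counts, against 0.197 in the nearest segment and a group median of 0.180. Car3 in that segment stood at 1.24 per 100 Alb counts, against 0.359 in the nearest and a median of 0.297. Its negative probe count of 43.1 was the highest of the 38 segments, and the part of background in both values was not tested. The other value was Hsd3b5 in the periportal IBA1+ segment of ROI 013 (WT DDC), at 3.50 Q3-normalized counts against 5.25 in the other 3 segments; all 4 were at 1 count, so the scaling factor sets this gap.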

How the results depend on the processing

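The lower Mup13 in Trail Δmye kept its call in PanCK+ and periportal IBA1+ segments on both diets under all 8 other fits (highest adjusted p 0.0386), and in 4 of 7 fits on CON and 6 of 7 on DDC in parenchyma. Most values that turned sign were of Car3 and Hsd3b5, and a few of Alb and Mup13. On DDC, Car3 was not over 2 times the negative probe in 9 of 22 segments and Hsd3b5 in 22 of 22. The median of all genes moved by over 0.1 between scalings, for example from 0.21 to -0.05 with TMM in DDC PanCK+ segments by genotype. The cause of each change below was not tested. Values are log2 differences.

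Hsd3b5 by genotype in DDC PanCK+ turned to -0.14 (TMM), -0.23 (DESeq2), -0.075 and -0.096 (limma), in DDC periportal IBA1+ to 4.38 (counts of 1 set to 0), and in DDC parenchyma to 0.39 (low-count filter) and 0 (thinned). Its diet difference in Trail Δmye PanCK+ turned to 0.15 (counts of 1 set to 0) and 0.31 (thinned), its periportal IBA1+ interaction to -1.14 (thinned), its class difference to 0.038 on CON (thinned) and -0.18 and -0.19 on DDC (limma), and its DDC location difference to -0.063 (DESeq2). Car3 by genotype in DDC PanCK+ turned to 0.11 (low-count filter) and 0.0071 (counts of 1 set to 0), and its periportal IBA1+ interaction to -0.088 (TMM), -0.12 (DESeq2), -0.080 (filter) and -0.27 (thinned). Alb turned to 0.010 by genotype in DDC PanCK+ (filter), -0.029 in CON periportal IBA1+ (thinned), and 0.11 (filter) and 0.0072 (thinned) by location on CON. The class call of Car3 on CON was lost when thinned (-0.97). The location call of Mup13 was lost on CON with DESeq2 (-0.84), limma (-0.94 and -0.94), the filter (-0.69) and thinning (-0.76), and on DDC with limma (-1.16 and -1.17). Car3 by location was called on CON with counts of 1 set to 0 (-0.95) and lost on DDC with that setting (-1.40) and thinning (-1.24).

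For ratios, Ttr in place of Alb or no reference gene brought Mup13 by genotype past the threshold on DDC in PanCK+ (-2.02 and -2.53) and periportal IBA1+ (-1.83 and -2.67). They turned Mup13 by class on CON to -0.060 and -1.20 and by location on DDC to -0.14 and -1.18, and Ttr made the class difference on DDC pass (-0.31). Hsd3b5 by genotype in DDC PanCK+ turned to -0.026 (10 hepatocyte genes), -0.13 (no reference) and -1.79 (negative probe subtracted). Its class difference turned to -0.15 on CON (no reference) and -0.17 (Ttr), -0.19 (no reference) and -0.26 (negative probe) on DDC, and its location difference on DDC to -0.022 (no reference). Car3 by genotype on DDC turned to -0.089 in PanCK+ (no reference), and 0.10 (Ttr) and 0.14 (1 subtracted) in periportal IBA1+. Its location difference on DDC turned to -0.38 (Ttr), -1.42 (no reference) and -0.24 (negative probe).

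Leaving out 1 segment or ROI at a time gave these ranges. By genotype, Hsd3b5 ran from -0.39 to 0.37 and Car3 from -0.40 to 0.40 in DDC PanCK+, Mup13 from -2.63 to -1.94 in CON periportal IBA1+, Alb from -0.26 to 0.15 in DDC PanCK+ and -0.56 to 0.031 in DDC periportal IBA1+, Hsd3b5 from -0.25 to 0.15 in DDC parenchyma and Car3 from -2.28 to -2.07 in CON parenchyma. The periportal IBA1+ interactions of Mup13 ran from -0.73 to 0.15 and of Car3 from -0.33 to 1.21, and Hsd3b5 by class on DDC from -0.35 to 0.25. By location, Mup13 ran from -1.08 to -0.68 on CON and from -1.65 to -0.94 on DDC, Hsd3b5 from -0.017 to 0.35 and Car3 from -1.60 to -1.03 on DDC. Mup13 on CON was lost without WT ROI 004 or Trail Δmye ROI 026, 027, 028, 030 or 031. On DDC it was lost without WT ROI 007, 010, 011, 012 or 013 or Trail Δmye ROI 034 or 038, and Car3 without the same 5 WT ROIs or Trail Δmye ROI 032 or 037. Relative to Alb, Mup13 by class on CON ran from -0.035 to 0.31, Hsd3b5 by genotype in DDC PanCK+ from -0.51 to 0.40 and by class on DDC from -0.058 (also -0.038 and -0.023) to 0.32, and Car3 by genotype in DDC PanCK+ from -0.42 to 0.46, by class on DDC from -0.34 to 0.044 (also 0.015) and by location on DDC from -0.31 to 0.48.

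With the ROI as a replicate block, class differences on CON were -1.20 for Mup13, -1.46 for Car3 and -0.08 for Hsd3b5, and on DDC -0.39, -0.12 and 0.30; the block changed no call. Genotypes, diets and locations share no ROI, so these contrasts allow no pairing. Sex-biased genes called by genotype on CON numbered 1 to 3 (PanCK+), 3 to 4 and 0 to 3 for the male-biased list and 1 to 2, 1 to 3 and 0 to 3 for the female-biased list across the other fits. Parenchymal contrasts rest on 1 or 2 segments a group, and Hsd3b5 was over 2 times the negative probe in 4 of 38 segments.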
